A study of Mus musculus with 12 samples.

Results

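Matricellular proteins are secreted into the extracellular matrix, where they bind receptors, growth factors and matrix fibres and change how cells attach and signal, rather than bearing load themselves. The 9 genes described here encode proteins of this kind or close partners of them, and were chosen by symbol: thrombospondin 1 and 2 (Thbs1 and Thbs2), connective tissue growth factor (Ctgf, also Ccn2), cysteine-rich angiogenic inducer 61 (Cyr61, also Ccn1), periostin (Postn), osteonectin (Sparc), tenascin C (Tnc), fibronectin (Fn1) and transforming growth factor beta induced protein (Tgfbi). All 9 were among the 32544 genes with a count and among the 14285 that passed the filter on low counts. Several of them are used as readouts of transforming growth factor β (TGFβ), which acts through SMAD transcription factors, and of YAP, a coactivator that the Hippo kinases hold out of the nucleus and that binds DNA through TEAD proteins. Cyr61 and Ctgf are classic targets of YAP and TEAD in fibroblasts.

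RNA had been sequenced from 2 kinds of mouse cell in 4 groups of 3 libraries. Bone marrow-derived macrophages (BMDMs) were grown from LysMCre mice, called WT, and from PHD2cko mice, in which the same LysM-driven Cre cuts the floxed gene of the oxygen sensor PHD2 in myeloid cells. Both strains thus carry the Cre, and their BMDMs had been grown with L929-conditioned medium and were harvested 24 h after seeding. 3T3 cells, an established mouse fibroblast line, had been starved of serum and then kept for 72 h in medium that WT or PHD2cko BMDMs had conditioned. Both normoxic and hypoxic conditioned media are described for the study, and the oxygen condition of the sequenced cultures is not given in the sources used here. The comparison of fibroblasts asks which transcripts differ when the medium comes from PHD2cko rather than WT macrophages, and the comparison of BMDMs asks the same of the cells that made it. The sources do not say whether the 3 libraries of a group came from separate animals or cultures, so p-values measure the spread between these libraries, which may be technical.

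Library totals ran from 15516465 to 25199770 counts, and 3 counts, the floor used here, equalled 0.119 to 0.193 counts per 1e+06 of the total. Levels below are counts per 1e+06 counts (CPM) after TMM scaling, with SD over n = 3 libraries. Egln1, the gene of PHD2, was higher, not lower, in the BMDM libraries labelled PHD2cko (860, 904 and 913 counts in WT, 1134, 1000 and 1364 in PHD2cko; log2 fold change 0.33, standard error (SE) 0.0527, edgeR adjusted p = 0.00203), but the deposited values are per gene and can include transcripts without the floxed exon, so they do not check the deletion. The groups are called by their labels throughout. Among the fibroblast libraries, WT medium replicate 1 stood apart: over all genes, the chi-square of its counts divided by the degrees of freedom was 23.1 with replicate 2 and 24.9 with replicate 3, while replicates 2 and 3 gave 2.29 with each other. All 16 fibroblast markers had over 3 counts in each of the 6 fibroblast libraries (summed 24242 to 32556 CPM) and summed to only 2.75 to 8.59 CPM in BMDMs. All 24 macrophage markers had over 3 counts in every BMDM library. They were also present in fibroblasts, where their summed level was 0.086% to 0.09% of that in macrophages in WT medium and 0.553% to 2.34% in PHD2cko medium. Of endothelial markers, 3 of 8 could be tested in fibroblasts. Kdr and Vwf were called higher by edgeR (1 of them by limma-voom), and both were present in WT BMDMs, at 17.5 and 293 CPM, while Pecam1 was not called (log2 fold change -0.37). In fibroblasts Kdr was near the floor, at 0.0594 CPM in WT medium, under the level of 3 counts, and 0.471 CPM in PHD2cko medium. Of lymphocyte and epithelial markers 2 of 10 could be tested and none was called.

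In fibroblasts, Thbs1, Cyr61 and Ctgf fell and Tgfbi, Postn and Tnc rose in PHD2cko medium compared to WT medium, while Thbs2, Sparc and Fn1 did not pass the test. That is 3 genes higher, 3 lower and 3 not called of 9, where 15.7% of all genes tested were called, 8.93% higher and 6.75% lower. The median log2 fold change of the 9 was -0.05, beside -0.005 over all genes. In bulk RNA, fewer cells of a type and less RNA per cell cannot be told apart. Calls are from edgeR's quasi-likelihood test over all 12 libraries, run two-sided, and p-values were adjusted by Benjamini-Hochberg over every gene tested, with a threshold of 0.05.

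**Figure D1:**
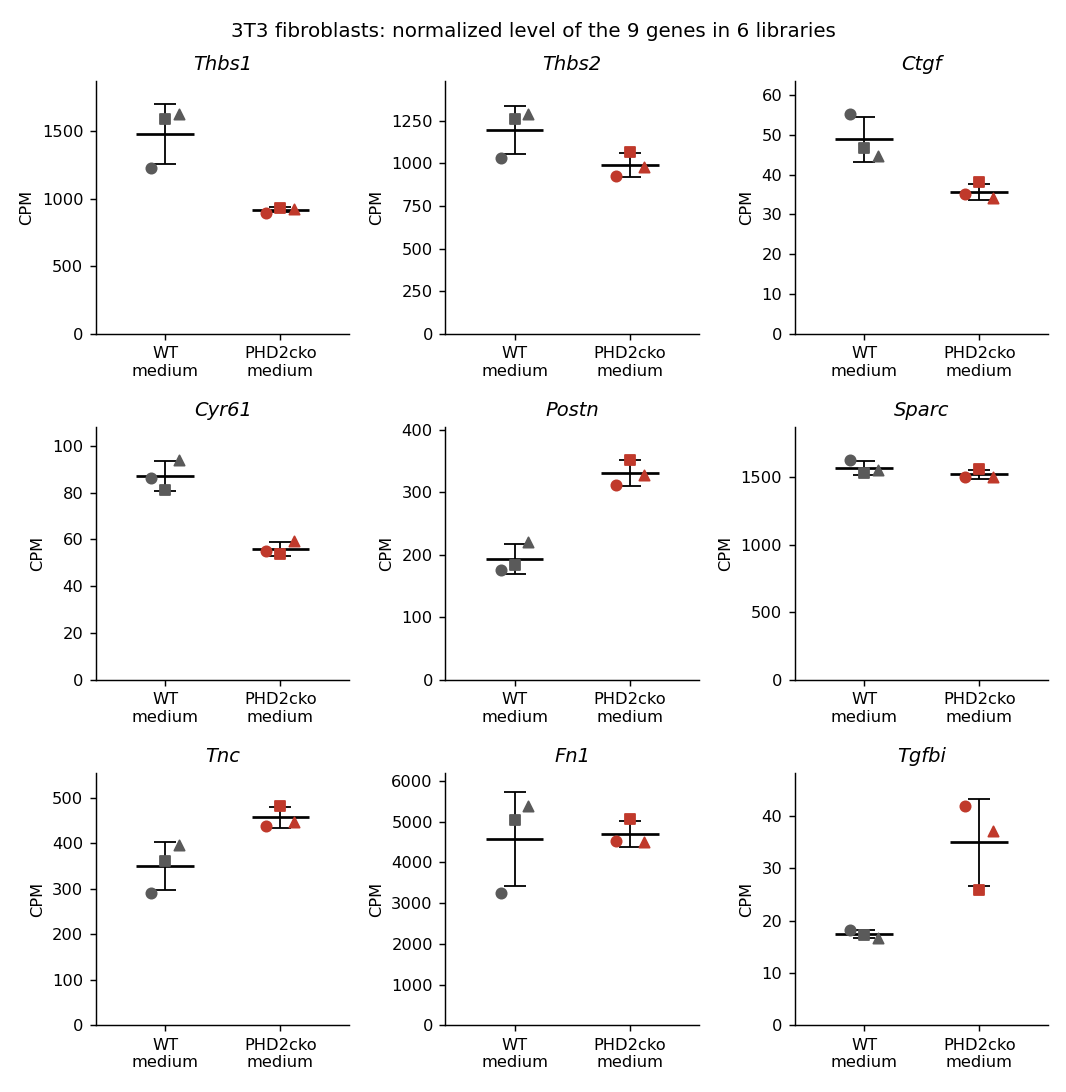
Level of each of the 9 genes in CPM (linear axis from 0) in 3 fibroblast libraries in WT medium (grey) and 3 in PHD2cko medium (red); circle, square and triangle are replicates 1, 2 and 3, the bar is the mean and the whisker the SD. Thbs1, Ctgf and Cyr61 lie lower in every PHD2cko medium library than in any WT medium library, Postn, Tnc and Tgfbi lie higher, and the groups overlap for Thbs2, Sparc and Fn1.

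To show what lies ahead of the genes that changed, the 250 bases upstream of the start site are printed for the 4 changed genes matched in the RefSeq promoter table used here (GRCm38.p6), at the RefSeq start site nearest to the start of the gene in GENCODE. Each is read 5′ to 3′ along the strand of its gene, from farthest to nearest. Capitals mark GGAATG, a core bound by TEAD, or CAGAC, a SMAD-binding core, on either strand, so that CATTCC and GTCTG are their reverse complements.
Cyr61, chr3:145649986-145650235, minus strand: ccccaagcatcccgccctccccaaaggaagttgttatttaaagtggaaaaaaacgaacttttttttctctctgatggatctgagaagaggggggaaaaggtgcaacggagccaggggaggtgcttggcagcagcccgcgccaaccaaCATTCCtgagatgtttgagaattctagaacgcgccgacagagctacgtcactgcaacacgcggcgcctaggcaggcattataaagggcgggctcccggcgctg
Postn, chr3:54360857-54361106, plus strand: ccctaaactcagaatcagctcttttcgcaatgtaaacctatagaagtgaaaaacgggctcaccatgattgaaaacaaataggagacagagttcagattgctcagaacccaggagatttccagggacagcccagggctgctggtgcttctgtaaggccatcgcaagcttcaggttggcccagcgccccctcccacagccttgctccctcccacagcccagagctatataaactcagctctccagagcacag
Tnc, chr4:64047016-64047265, minus strand: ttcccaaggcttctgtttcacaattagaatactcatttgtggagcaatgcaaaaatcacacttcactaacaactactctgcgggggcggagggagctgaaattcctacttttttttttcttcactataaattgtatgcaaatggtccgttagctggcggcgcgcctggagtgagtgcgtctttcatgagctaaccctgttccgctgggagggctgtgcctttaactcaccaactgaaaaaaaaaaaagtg
Tgfbi, chr13:56609336-56609585, plus strand: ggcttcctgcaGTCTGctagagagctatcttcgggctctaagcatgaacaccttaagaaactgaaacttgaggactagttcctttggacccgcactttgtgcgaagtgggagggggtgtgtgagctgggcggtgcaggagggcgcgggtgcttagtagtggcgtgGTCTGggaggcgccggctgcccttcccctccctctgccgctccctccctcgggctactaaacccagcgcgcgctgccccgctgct
Of these, Cyr61 alone held the TEAD core, 103 bases before its start site. Tgfbi held the SMAD core at 239 and 85 bases before its start site. The Postn and Tnc windows printed held none of the motifs, while a second RefSeq start site of each gene had 1 SMAD core, at 191 bases for Postn and 70 for Tnc. Over all 8 start sites of the 6 genes matched in that table, 1 held the TEAD core and 5 the SMAD core, against 12.6% and 42.2% of 32851 promoters of the same length. The AP-1 site TGANTCA was in 0 of the 8 (6.75% of all), and so was the CArG box, to which serum response factor binds (1.47% of all). Where motifs were found, none overlapped another. A match describes these letters only and is not a binding site. Thbs2 and Sparc, neither of which changed by the test, were the other members matched, and each held the SMAD core. Thbs1, Ctgf and Fn1 are named only.

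Cyr61 and Ctgf belong to the CCN family, short-lived secreted proteins that bind integrins and heparan sulphate. Cyr61 (chromosome 3, 145646976 to 145649981, minus strand of GRCm38) had 1695, 2237 and 1780 counts in WT medium replicates 1, 2 and 3 and 1070, 927 and 1226 in PHD2cko medium. Its level was 86.2, 81.1 and 94.1 CPM in WT medium and 55, 53.6 and 59.4 CPM in PHD2cko medium. All 3 libraries in PHD2cko medium lay below all 3 in WT medium, which held for 16.5% of all genes (31.9% did not overlap in either direction). The mean fell from 87.2 ± 6.52 to 56 ± 3 CPM (SD, n = 3), a log2 fold change of -0.64 (SE 0.0684, edgeR adjusted p = 0.000117). Cyr61 had the smallest adjusted p of the 9 and passed in all 8 other settings and in all 12 fits without a single library, with adjusted p from 1.06e-10 to 0.0061 in the former.

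Ctgf (chromosome 10, 24595442 to 24598683, plus strand) was less abundant than Cyr61, with 1086, 1285 and 844 counts in WT medium and 682, 657 and 706 in PHD2cko medium. In CPM these were 55.2, 46.6 and 44.6 in WT medium and 35, 38 and 34.2 in PHD2cko medium, so the groups did not overlap. Ctgf fell from 48.8 ± 5.65 to 35.7 ± 2 CPM (SD, n = 3), a log2 fold change of -0.45 (95% interval -0.74 to -0.16, edgeR adjusted p = 0.0388). The call was close to the threshold. A block on the replicate number removed the call (edgeR adjusted p = 0.0578). It was lost with the macrophage share subtracted (log2 fold change -0.42, edgeR adjusted p = 0.0539), in fits without PHD2cko medium replicate 1 (0.113), PHD2cko medium replicate 3 (0.138) or WT medium replicate 2 (0.0636), and without BMDM WT replicate 1 (0.0539), BMDM WT replicate 3 (0.0525) or BMDM PHD2cko replicate 2 (0.062), while it was kept without each of the other BMDM libraries. Without WT medium replicate 1, the library that stood apart and held the highest Ctgf level, its log2 fold change was -0.33 and still passed (edgeR adjusted p = 0.0417). The ratio of Ctgf to Cyr61 counts inside a library, which library scaling cannot change, was 0.563 ± 0.0839 in WT medium and 0.641 ± 0.0665 in PHD2cko medium (SD, n = 3), and the groups overlapped.

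The thrombospondins are trimeric glycoproteins that bind CD36, CD47 and integrins, and thrombospondin 1 is an activator of latent TGFβ. Thbs1 (chromosome 2, 118111876 to 118127133, plus strand) had 24123, 43921 and 30782 counts in WT medium and 17415, 16063 and 19114 in PHD2cko medium. Its level was 1227, 1593 and 1627 CPM in WT medium against 895, 929 and 926 CPM in PHD2cko medium, with no overlap. WT medium replicate 1 was the lowest of its group. Without it the fall was larger (log2 fold change -0.79) than with all libraries (-0.69, 95% interval -0.89 to -0.5, edgeR adjusted p = 0.000355). Thbs1 passed in all 9 other settings and in all 12 fits without a single library.

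Thbs2 (chromosome 17, 14665500 to 14694235, minus strand), the closest relative of Thbs1, measured 1032, 1262 and 1289.6 CPM in WT medium and 925, 1067 and 977 CPM in PHD2cko medium. The groups overlapped because WT medium replicate 1 was below PHD2cko medium replicate 2. The log2 fold change was -0.27 (SE 0.0927, 95% interval -0.47 to -0.07, edgeR adjusted p = 0.068), which missed the threshold. Without WT medium replicate 1 it was -0.35 and passed (edgeR adjusted p = 0.00195), as it did without PHD2cko medium replicate 2 (0.0314), with the Wald test of DESeq2 (0.0447) and with limma-voom (0.0373). The ratio of Thbs1 to Thbs2 counts was 1.19, 1.26 and 1.26 in WT medium and 0.967, 0.871 and 0.947 in PHD2cko medium. Thbs1 thus had more counts than Thbs2 in every library in WT medium and fewer in every library in PHD2cko medium. Divided by exon length, Thbs1 stayed above Thbs2 on average in both, at 244 against 171 CPM per kb in WT medium and 151 against 141 in PHD2cko medium, where the libraries of both genes overlapped (147 to 153 and 132 to 152).

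**Figure D2:**
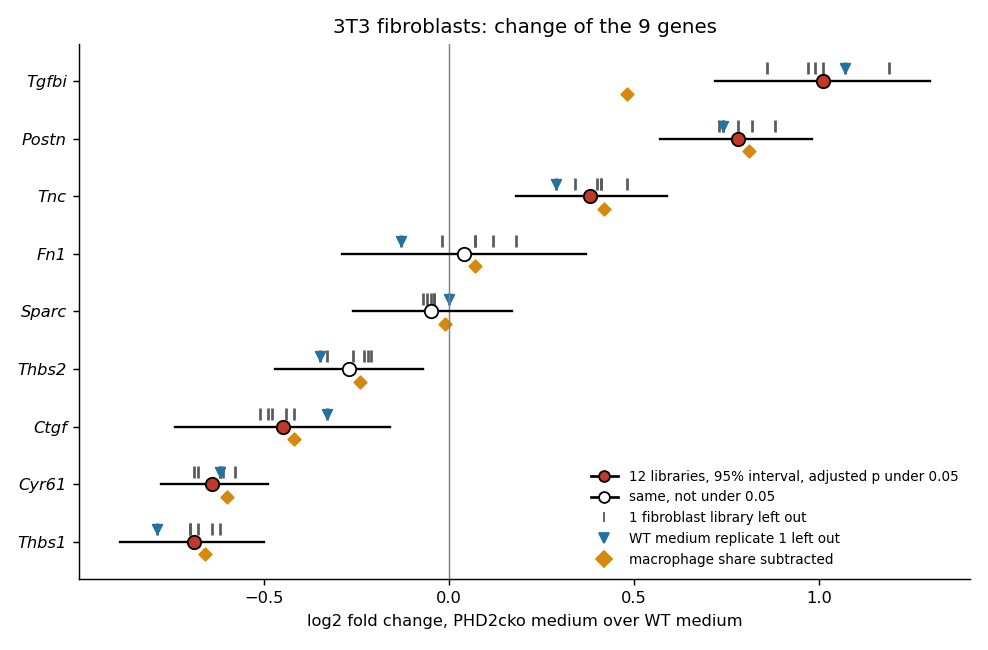
Log2 fold change of each gene in fibroblasts (PHD2cko medium over WT medium) from edgeR with 12 libraries and its 95% interval; red points passed the threshold and white points did not. Grey ticks show fits without 1 fibroblast library, blue triangles the fit without WT medium replicate 1 and orange diamonds the fit with the macrophage share subtracted, in which Tgfbi moved from 1.01 to 0.48.

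Periostin and the TGFβ induced protein are fasciclin-domain proteins that bind collagen and integrins, and both are known as TGFβ responsive. Postn (chromosome 3, 54361109 to 54391037, plus strand) had 3438, 5065 and 4167 counts in WT medium and 6075, 6090 and 6767 in PHD2cko medium. Its level was 175, 184 and 220.3 CPM in WT medium and 312, 352 and 328 CPM in PHD2cko medium, and the lowest of the latter was well above the highest of the former (all 3 above in 15.4% of all genes). Postn rose by a log2 fold change of 0.78 (SE 0.0944, 95% interval 0.57 to 0.98, edgeR adjusted p = 0.000228) and passed in all 8 other settings and all 12 fits without a single library. Counted against Cyr61 in the same library, Postn stood at 2.21 ± 0.163 in WT medium and 5.92 ± 0.566 in PHD2cko medium (SD, n = 3). Per kb of exon, Cyr61 was above Postn in WT medium (43.2 against 22.2 CPM per kb) and below it in PHD2cko medium (27.7 against 38), with no overlap between the libraries in either.

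Tgfbi (chromosome 13, 56609523 to 56639562, plus strand) had the fewest counts of the 9 summed over each fibroblast group, with 357, 476 and 316 in WT medium and 817, 446 and 767 in PHD2cko medium. Its level was 18.2, 17.3 and 16.7 CPM in WT medium and 42, 25.8 and 37.1 CPM in PHD2cko medium. The groups did not overlap, but PHD2cko medium replicate 2 lay far below replicates 1 and 3. Tgfbi rose by a log2 fold change of 1.01 (SE 0.133, edgeR adjusted p = 0.000359), the largest of the 9. Macrophage RNA moved with it. Tgfbi was at 1206 ± 8.66 CPM in WT BMDMs (SD, n = 3), and the macrophage markers summed to 2.34%, 0.553% and 2.08% of their BMDM level in PHD2cko medium replicates 1, 2 and 3, in the same order as Tgfbi. At these shares, macrophages would account for 41.8%, 16.2% and 42.4% of the Tgfbi counts in PHD2cko medium, and for 4.78%, 5.18% and 5.26% in WT medium. With that part subtracted, Tgfbi was at 17.2, 16.3 and 15.7 CPM in WT medium and 25, 21.7 and 21.9 CPM in PHD2cko medium. It still passed, with a log2 fold change of 0.48 (SE 0.0686, edgeR adjusted p = 0.000756), less than the 1.01 without subtraction. The share came from the summed markers and was taken as exact, while single markers differed. In PHD2cko medium and WT BMDMs, Lyz2 was at 131 and 16423 CPM and C1qa at 11.3 and 297 CPM. A share read from C1qa would remove more of Tgfbi and a share read from Lyz2 less, and neither was tested. For the other 8 genes the estimated macrophage part was at most 0.0208% of the counts of any library.

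**Figure D3:**
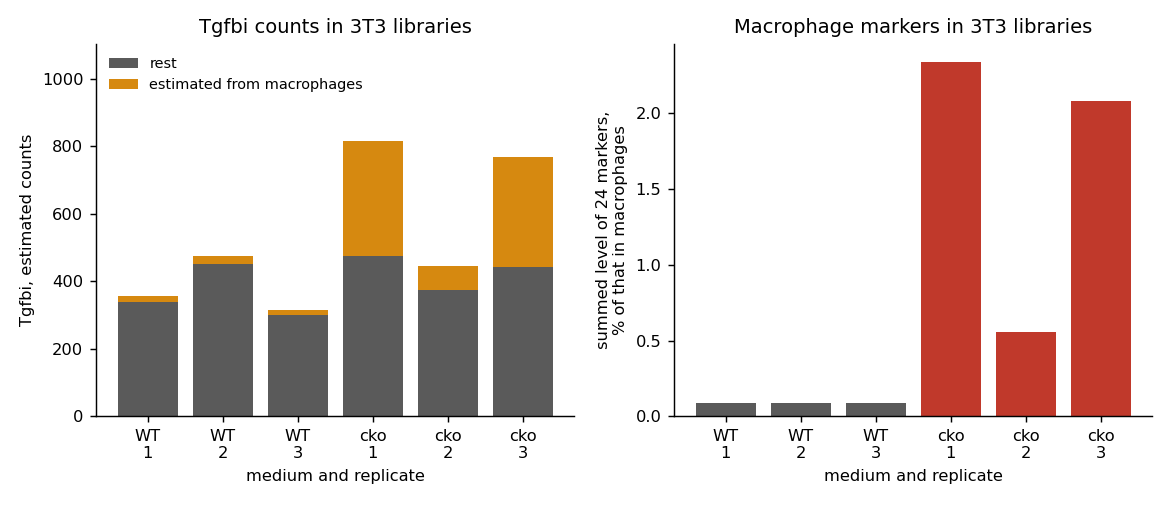
Left, Tgfbi counts in each fibroblast library (WT and cko medium, replicates 1 to 3), split into the part estimated from macrophage markers (orange) and the rest (grey). Right, the summed level of 24 macrophage markers in the same libraries as a percentage of that in BMDMs with the label of the medium; it is under 0.1 in WT medium and 0.553, 2.08 and 2.34 in PHD2cko medium, and the orange part of Tgfbi is largest in the same libraries.

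Tenascin C is a large hexameric glycoprotein of healing and fibrotic matrix. Tnc (chromosome 4, 63959785 to 64047015, minus strand) was at 292, 360.2 and 397 CPM in WT medium and at 439, 483 and 448 CPM in PHD2cko medium, without overlap. It rose by a log2 fold change of 0.38 (SE 0.0929, 95% interval 0.18 to 0.59, edgeR adjusted p = 0.0148). Tnc lost the call when the 6 fibroblast libraries were fitted alone (edgeR adjusted p = 0.0787). WT medium replicate 1 was the lowest of the 6 libraries, and without it the log2 fold change was 0.29.

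Sparc and Fn1 were the most abundant of the 9 per length and did not pass the test. Sparc (chromosome 11, 55394500 to 55423183, minus strand), which binds collagen and regulates its assembly, stayed within 1505 to 1631 CPM in all 6 libraries. Its log2 fold change was -0.05 (95% interval -0.26 to 0.17, edgeR adjusted p = 0.802). Fn1 (chromosome 1, 71585520 to 71653200, minus strand), the fibronectin that integrins assemble into fibrils, had more counts than any other of the 9, with 63847, 139224 and 101982 in WT medium and 87781, 87476 and 92808 in PHD2cko medium. In CPM it spread from 3248 in WT medium replicate 1 to 5049.8 and 5391 in replicates 2 and 3, around 4511, 5061 and 4495 CPM in PHD2cko medium. The log2 fold change of Fn1 was 0.04 (95% interval -0.29 to 0.37, edgeR adjusted p = 0.902), and its sign turned without WT medium replicate 1 (-0.13, edgeR adjusted p = 0.304). These intervals bound the change of each gene and do not show that the media act alike on it.

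The order of the 9 genes per length was nearly the same in both media. In WT medium, Sparc stood at 415 CPM per kb of exon and Fn1 at 390.5 (278 to 461), which overlapped, followed by Thbs1 at 244, Thbs2 at 171, Tnc at 45, Cyr61 at 43.2, Postn at 22.2, Ctgf at 17.1 and Tgfbi at 4.61. Tnc and Cyr61 overlapped as neighbours (37.6 to 51.1 and 40.2 to 46.6). In PHD2cko medium the order was Sparc (402), Fn1 (401), Thbs1 (151), Thbs2 (141), Tnc (58.8), Postn (38), Cyr61 (27.7), Ctgf (12.5) and Tgfbi (9.28). Together the 9 genes took 1.03 ± 0.173% of all counts in WT medium and 1.01 ± 0.0493% in PHD2cko medium (SD, n = 3).

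For each gene, 1 gene followed its level most closely over the 6 fibroblast libraries, by Pearson correlation of log2 CPM over 9379 genes with a mean of at least 10 CPM. These are descriptions over 6 libraries that share their depth and grouping. The partner of Tgfbi was Cd14, a macrophage surface receptor and 1 of the 24 markers (r = 0.9969). That of Postn was Has2, which makes hyaluronan (r = 0.9972), and that of Thbs1 was Bgn, the proteoglycan biglycan (r = 0.9983). The others were Nedd9 for Thbs2 (0.9989), Gtf2f1 for Ctgf (0.9999), Tmem43 for Cyr61 (0.9951), 1810009A15Rik for Sparc (0.9940), Abca8b for Tnc (0.9997) and Xpo6 for Fn1 (0.9977).

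Other genes of the same families and pathways were read from lists written by hand. Of 24 matricellular relatives, 19 could be tested in fibroblasts, 3 rose and 6 fell, with a median log2 fold change of -0.16. Over all genes tested, 8.93% rose and 6.75% fell, with a median of -0.005. Dpt, which encodes the matrix protein dermatopontin, rose from 119 ± 9.81 to 192 ± 7.53 CPM (log2 fold change 0.69, edgeR adjusted p = 0.000313). Spp1, the secreted phosphoprotein osteopontin, rose from 815 ± 126 to 1205 ± 261 CPM (0.57, edgeR adjusted p = 0.0191), and was at 1014 CPM in WT BMDMs. With the macrophage share subtracted, Spp1 was still called higher. Wisp1, a CCN relative of Cyr61 and Ctgf, rose by 0.27 on the log2 scale (edgeR adjusted p = 0.0267). Wisp2, another CCN gene, fell from 33 ± 3.73 to 17.7 ± 1.25 CPM (-0.9, edgeR adjusted p = 5.95e-05). Fbln5, an elastic fibre organiser, fell from 400.4 ± 14.2 to 266 ± 16.5 CPM (-0.59, edgeR adjusted p = 8.65e-05), and Smoc2, a relative of Sparc, from 65 ± 1.55 to 42.3 ± 3.71 CPM (-0.62, edgeR adjusted p = 0.000422). Genes of the CCN family thus moved in both directions.

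Of 21 other YAP and TEAD targets, 20 could be tested, none rose and 6 fell, with a median of -0.15. Over all genes tested, 8.93% rose and 6.75% fell, with a median of -0.005. Amotl2, an angiomotin that binds YAP, fell from 391 ± 26.9 to 288 ± 9.4 CPM (log2 fold change -0.44, edgeR adjusted p = 0.0013). F3, which encodes tissue factor, changed by -0.29 (edgeR adjusted p = 0.0131) and the Hippo kinase gene Lats2 by -0.18 (edgeR adjusted p = 0.0221). With the macrophage share subtracted, 4 were called lower and 1 higher, and with limma-voom 8 lower and 1 higher. Of all 14285 genes, 907 were lower and 982 higher with the share subtracted, and 1126 lower and 1302 higher with limma-voom. Amotl2 and Lats2 are also parts of the Hippo pathway but were listed as targets. Of the 19 Hippo and TEAD genes listed apart from them, none was called by edgeR or limma-voom, with a median of -0.01. Yap1, chosen after its values were seen, was at 134 CPM in WT medium and 131 in PHD2cko medium (log2 fold change -0.03, edgeR adjusted p = 0.591). Without WT medium replicate 1, Tead1 alone of these 19 was called, lower.

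Of 23 genes of the TGFβ response, 22 could be tested, 1 rose and 8 fell, with a median of -0.1. Over all genes tested, 8.93% rose and 6.75% fell, with a median of -0.005. The genes that fell include contractile and matrix genes. Acta2, the smooth muscle actin of myofibroblasts, fell from 412 ± 25.9 to 194 ± 8.36 CPM (log2 fold change -1.09, edgeR adjusted p = 6.68e-07). Tagln, an actin-binding protein of the same cells, fell from 46.3 ± 2.99 to 23.9 ± 1.05 CPM (-0.95, edgeR adjusted p = 5.95e-05), and Itgb5, an integrin subunit, from 182 ± 5.29 to 132 ± 1.63 CPM (-0.47, edgeR adjusted p = 5.95e-05). Junb, an AP-1 subunit, was the gene that rose, from 18.7 ± 2.36 to 27.8 ± 3.83 CPM (0.58, edgeR adjusted p = 0.00166), and was at 127 CPM in WT BMDMs. The same 8 genes fell and the same 1 rose with the macrophage share subtracted and without WT medium replicate 1.

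Of 16 immediate-early genes, 3 rose and 4 fell, with a median of -0.03, where 8.93% of all genes tested rose and 6.75% fell. Egr1, an early growth response factor, rose from 53.3 ± 2.37 to 67.8 ± 7.6 CPM (log2 fold change 0.35, edgeR adjusted p = 0.0175), while Fos and Atf3, which also rose, had means of 2.1 and 5.46 CPM in PHD2cko medium. Klf6 (-0.29, edgeR adjusted p = 0.0011), Srf (-0.18, edgeR adjusted p = 0.0369) and Ier3 (-0.32, edgeR adjusted p = 0.0414) fell. Srf encodes serum response factor, which drives Acta2 and Tagln in contractile cells. Of the 4 that fell, Klf6 alone passed with the macrophage share subtracted, where Atf3 was also lost.

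Of 22 receptors for matricellular proteins, 5 rose and 4 fell, with a median of 0, where 8.93% of all genes tested rose and 6.75% fell. Cd36, a thrombospondin receptor and scavenger receptor, went from 0.0594 CPM, under the level of 3 counts, to 7.82 CPM, so that no exact fold can be given. Stab1, which binds Sparc, rose from 0.527 to 22.5 CPM. Both were high in BMDMs. Cd36 was at 155 CPM in WT BMDMs and 399 in those labelled PHD2cko, where it rose by 1.37 on the log2 scale (edgeR adjusted p = 0.00203), and Stab1 was at 1174 and 1159.8 CPM. The other 3 that rose, Sdc3, Itga4 and Itga6, were also higher in WT BMDMs (366 to 516 CPM) than in fibroblasts in WT medium (2.7 to 48.6 CPM). With the macrophage share subtracted, 4 of the 5 passed and Itga4 did not. That share was read from the summed markers and taken as exact, so a rise within the fibroblasts themselves was not tested. Itgb5, Itga8 (-0.5, edgeR adjusted p = 0.00087) and Calr (-0.2, edgeR adjusted p = 0.0265), whose product calreticulin is a co-receptor for thrombospondin 1, fell. Itgb5 is counted in the list of the TGFβ response as well.

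**Figure D4:**
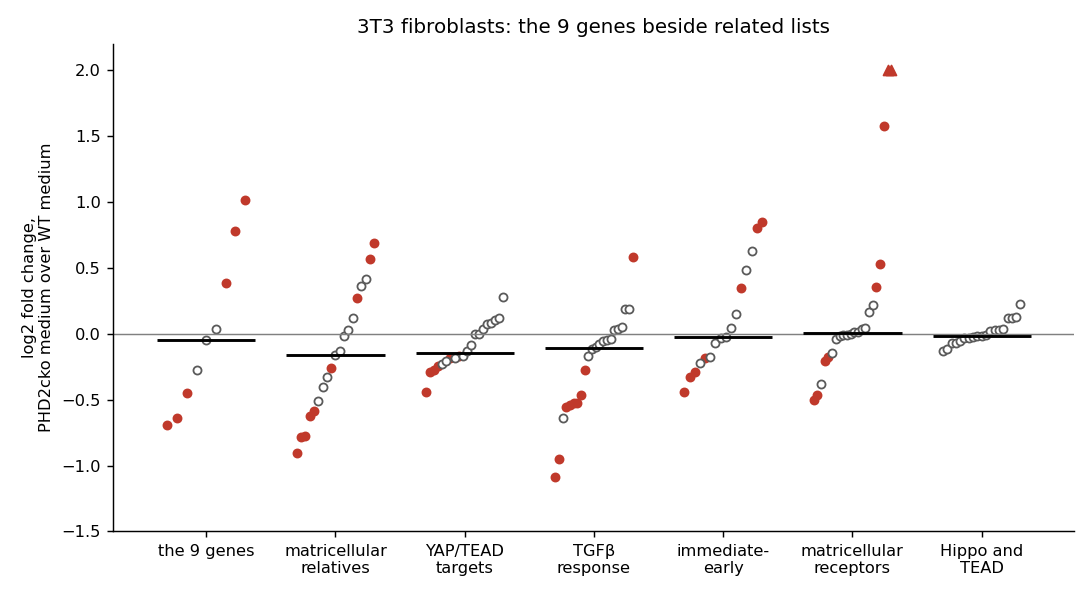
Log2 fold change in fibroblasts (PHD2cko medium over WT medium) of the 9 genes and of the tested genes of 6 lists, sorted within each list; red points passed the threshold, white points did not, and the black line is the median. The 2 red triangles at the upper edge are the receptors Cd36 and Stab1, whose fitted changes lie beyond the axis; Cd36 was under the level of 3 counts in WT medium, so its place is not an exact fold.

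In macrophages, of which the medium was made, most of the 9 genes were barely detected. Thbs1 fell and Sparc rose in BMDMs labelled PHD2cko compared to WT, and the other 7 were not called, where 6.73% of all genes were called, 3.38% higher and 3.35% lower. Of these, Thbs2, Ctgf, Cyr61, Postn and Tnc passed the filter only through the fibroblast libraries, so their missing calls are no result about them. With the BMDM libraries filtered and fitted alone, 4 of the 9 could be tested. Thbs1 had 395, 377 and 377 counts in WT and 156, 142 and 197 in PHD2cko, which is 25.6, 22.8 and 22.9 CPM against 9.47, 9.7 and 10.3 CPM. The groups did not overlap, as was so for 31.9% of all genes in either direction. Thbs1 fell by 1.27 on the log2 scale (SE 0.114, edgeR adjusted p = 2.16e-05) and passed in every setting tried.

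Tgfbi was the one abundant macrophage gene among the 9. It was at 1216, 1199 and 1204 CPM in WT and 945, 877 and 957 CPM in PHD2cko. These groups did not overlap and the replicates of WT were close (1206 ± 8.66 CPM), but the log2 fold change of -0.38 did not pass (SE 0.117, edgeR adjusted p = 0.0791). It passed when the 6 BMDM libraries were fitted alone (edgeR adjusted p = 1.49e-06), with DESeq2's Wald test (0.0163) and with limma-voom (0.0466). Fn1 was at 6.75, 7.57 and 5.6 CPM in WT and 7.89, 9.49 and 8.71 CPM in PHD2cko, higher in each PHD2cko library but not past the threshold (log2 fold change 0.39, edgeR adjusted p = 0.344). It passed when the 6 BMDM libraries were fitted alone (edgeR adjusted p = 0.0467) and without WT medium fibroblast replicate 1 (0.0362).

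Sparc had 2, 10 and 2 counts in WT and 17, 12 and 22 in PHD2cko. Its call (log2 fold change 1.79, SE 0.385, edgeR adjusted p = 0.014) rests on these few counts. Without WT replicate 2, which held 10 of the 14 WT counts, the log2 fold change was 2.95 (edgeR adjusted p = 0.000187). The call was lost without WT replicate 1 (0.0688) or 3 (0.0619) and without PHD2cko replicate 1 (0.0507) or 3 (0.0649). The other members were at or near the floor. Thbs2 had 0, 0 and 1 counts in WT and 3, 1 and 2 in PHD2cko, and Cyr61 had at most 2 in any BMDM library. Ctgf had 0, 3 and 0 against 0, 4 and 11, Postn 2, 2 and 0 against 5, 1 and 1, and Tnc 1, 3 and 1 against 6, 6 and 4. For Thbs2 and Tnc, each PHD2cko library lay above each WT library in CPM, by a few counts. None of these 5 genes passed the test, and at this depth smaller changes could not be seen.

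**Figure D5:**
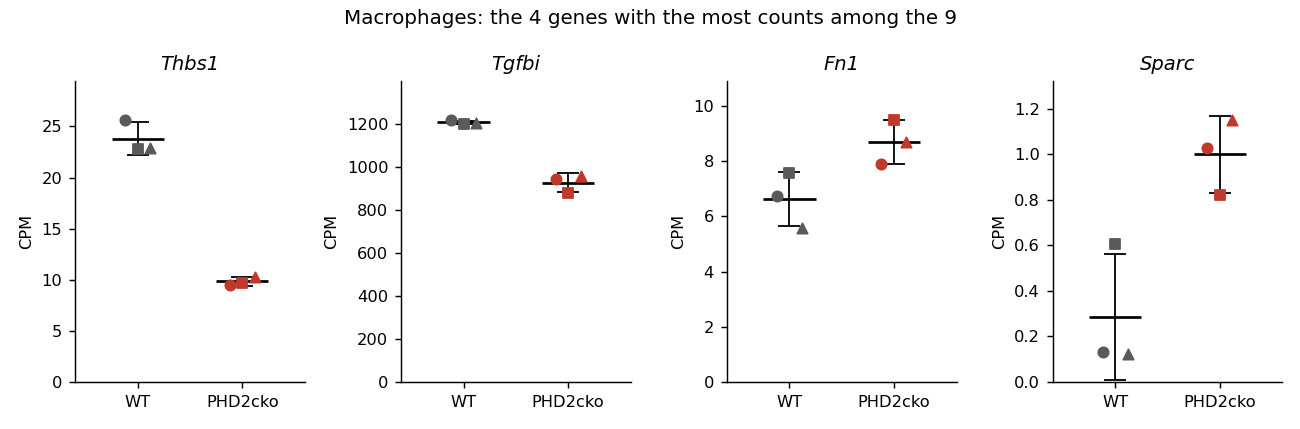
Level in CPM (linear axis from 0) of the 4 members with the most counts in macrophages, in 3 WT (grey) and 3 PHD2cko (red) BMDM libraries; circle, square and triangle are replicates 1, 2 and 3, the bar is the mean and the whisker the SD. Thbs1 and Tgfbi lie lower in each PHD2cko library and Fn1 and Sparc higher, but only Thbs1 and Sparc passed the test, and Sparc stays near 1 CPM.

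The effects of the label in the 2 cell types were compared directly. The difference between them (fibroblasts minus macrophages) passed for 3 of the 9 genes, 2 positive and 1 negative, where 12.3% of all genes passed, 7.71% positive and 4.58% negative. For Tgfbi, which rose in fibroblasts and was lower in each PHD2cko macrophage library, it was 1.39 on the log2 scale (SE 0.178, edgeR adjusted p = 0.000372). With the macrophage share subtracted from the fibroblast libraries and taken as exact, it was 0.87 (SE 0.0888, edgeR adjusted p = 0.000113) and still passed. Thbs1 fell in both, by 0.58 less in fibroblasts (SE 0.146, edgeR adjusted p = 0.0211). For Sparc the difference was -1.83 (SE 0.398, edgeR adjusted p = 0.00926), on the few macrophage counts given above. Cyr61, Postn, Ctgf, Tnc, Thbs2 and Fn1 did not pass, and for the first 5 of these the macrophage counts leave wide intervals.

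Among WT libraries, all 9 genes differed between fibroblasts and macrophages, as did 85.3% of all genes, 44.9% higher and 40.4% lower in fibroblasts. Cell type, culture time and medium differ together in this comparison and cannot be told apart. In fibroblasts 8 were higher. On the TMM scale, Thbs1 was 62.3 times as high in fibroblasts and Fn1 687 times. Over total counts without TMM, the same ratios were 75.9 (95% exact interval 71.6 to 80.5) and 838 (751 to 938), where the intervals cover counting error only and not the choice of scaling. Sparc had 103740 counts against 14 in macrophages, a ratio over total counts of 6535 (3895 to 11955) and of 5313 on the TMM scale. Tnc had 23197 against 5, a ratio of 4092 (1753 to 12603) over total counts and of 3178 on the TMM scale. For Thbs2, with 1 macrophage count, Cyr61 and Ctgf, with 3 each, and Postn, with 4, the lower bounds of the ratio over total counts were 12579, 574, 323 and 1091. Tgfbi alone went the other way, at 17.4 CPM in fibroblasts and 1206 CPM in macrophages (log2 fold change -6.12, SE 0.15, edgeR adjusted p = 2.45e-13), and over total counts without TMM it was 57.6 times as high in macrophages.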

How the data were processed

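The authors deposited estimated counts per gene, made with Kallisto on mouse GRCm38 per the labels and methods, as whole numbers without normalization, for 32544 genes in 12 single-end libraries (15516465 to 25199770 counts). Totals limit precision for genes near 3 counts. Groups and replicate numbers came from the labels, and 0 columns were unmapped. Genes were kept by filterByExpr (14285), scaled by TMM and tested with edgeR 4.0.16 (R 4.3.3), quasi-likelihood, two-sided, Benjamini-Hochberg over all genes kept, threshold 0.05, all 12 libraries fitted together. The pipeline was tested on simulated data. In the fibroblast comparison it recovered 96 of 100 genes changed by 1 on the log2 scale and 87 of 100 changed by 0.5. Of its 201 calls there, 18 were false. In the macrophage comparison it recovered 100 and 76 of 100, with 10 false calls of 186. Alternatives were DESeq2 1.42.0 size factors and Wald test, limma-voom 3.58.1, stricter and looser filters (at least 10 counts per library everywhere, or 1 count in all), the compared groups alone, a block on the replicate number, leaving out single libraries, total-count CPM, and the macrophage share subtracted. That share was the summed CPM of 24 markers over that in BMDMs of the same label, and each fibroblast library lost its share of the mean BMDM profile. Some alternatives were chosen after seeing the data: fibroblasts alone without WT medium replicate 1, the gene lists without that library or with the share subtracted, and the difference between cell types with the share subtracted. CPM are over effective library sizes, and CPM per kb use the union of exons in GENCODE. Promoters are from RefSeq, GRCm38.p6. Protein sequences were not analysed here, and 1 item of the mouse background is not reported here. Genes named from a list are up to 3 per direction with the smallest adjusted p and at least 1 CPM. The members and lists were chosen with earlier results of these data known.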

Additional observations from a re-analysis of the deposited data

Results flagged for a closer look

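The label effect differed between the 2 cell types, by the test of the difference itself, for 3 genes. Tgfbi (difference 1.39 on the log2 scale, fibroblasts minus macrophages) rose in fibroblasts in PHD2cko medium and was lower in every BMDM library labelled PHD2cko. With each library left out in turn, its difference stayed between 1.24 and 1.57 and passed in all 12 fits. At the share read from the summed markers, macrophages would account for 16.2% to 42.4% of the Tgfbi counts in PHD2cko medium. With that part subtracted, an alternative chosen after seeing the data, the difference was 0.87 (edgeR adjusted p = 0.000113). Shares read from single markers were not tested. Thbs1 (0.58) fell in both cell types and by more in macrophages, and its difference missed the threshold with limma-voom (adjusted p = 0.0511) and without WT BMDM replicate 1 (edgeR adjusted p = 0.0615), PHD2cko BMDM replicate 1 (0.0611) or PHD2cko BMDM replicate 2 (0.0545). Sparc (-1.83) differed on 2 to 22 macrophage counts per library, and passed in all 12 fits without a single library, with values from -3.00 to -1.46. Without WT BMDM replicate 2 the value was -3.00.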

How the results depend on the processing

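In fibroblasts, Thbs1, Cyr61, Postn and Tgfbi passed the threshold with the same sign under each alternative that could test them. For Tgfbi, only the share read from the summed markers was subtracted. When libraries were left out one at a time, the number of the 9 genes called higher in fibroblasts was 3 to 3 and the number lower 2 to 4. In macrophages these were 0 to 2 and 1 to 2, for the difference 1 to 2 and 1 to 2, and between cell types 8 to 8 and 1 to 1. Of all 14488 to 14537 genes tested in these fits, 797 to 1683 were higher and 463 to 1074 lower in fibroblasts. In macrophages 261 to 920 were higher and 266 to 969 lower. For the difference the numbers over all genes were 818 to 1467 and 447 to 849, and between cell types 6297 to 6561 and 5645 to 5887. Only 3 of the 9 genes (Thbs1, Fn1 and Tgfbi) had at least 10 counts in every library. With that filter 1 was called higher and 1 lower in fibroblasts and 0 higher and 2 lower in macrophages. A negative difference was called for 0, and 2 were higher in fibroblasts than in macrophages. Of all 10657 genes tested with it, 838 were higher and 780 lower in fibroblasts and 436 and 465 in macrophages. A negative difference was called for 574 of all, and 4648 were higher in fibroblasts than in macrophages. With DESeq2's Wald test 2 were lower in macrophages (598 of all 14285 genes) and 2 had a negative difference (605 of all). With limma-voom 2 were lower in macrophages (568 of all) and 1 had a positive difference (1012 of all). With the groups compared fitted alone, 4 of the 9 could be tested in macrophages, and 2 were higher and 2 lower, where 1202 of all 12282 genes tested were higher and 1332 lower. The cause of these moves was not tested, except that the filter and the fit of macrophages alone leave fewer genes.

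Signs that turned belonged to changes that were not called. Fn1 in fibroblasts ranged from -0.13 (without WT medium replicate 1) to 0.18 over fits without a single library, and was -0.15 with fibroblasts alone and without that library, and -0.02 without PHD2cko medium replicate 2. In macrophages, Cyr61 ranged from -0.22 (without WT replicate 3) to 1.18 and Postn from -0.44 (without PHD2cko replicate 1) to 1.16. The difference of Postn was -0.34 and -0.30 without WT BMDM replicates 1 and 2, and -0.20 and -0.38 without PHD2cko BMDM replicates 2 and 3, and reached 1.21 without PHD2cko BMDM replicate 1.

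Libraries with the same number did not deviate together (correlations of 0.0397, 0.0418 and -0.0822 in fibroblasts and -0.0247, 0.00507 and 0.0235 in macrophages). Pairs with different numbers gave -0.09 to 0.0888 in fibroblasts and -0.0379 to 0.0334 in macrophages. With 3 libraries per group, whether the numbers mark a batch or a pairing cannot be told from this. With the replicate number as a block, Ctgf had an edgeR adjusted p of 0.0578, the number of the 9 lower in fibroblasts was 2 and the number higher 3, and 2 immediate-early genes were lower in place of 4. YAP and TEAD targets called higher numbered 1, and not 0, with limma-voom, with the macrophage share subtracted and without WT medium replicate 1. Immediate-early genes called lower numbered 1 with the share subtracted. Without WT medium replicate 1, 5 immediate-early genes were called higher and 2 lower, and 1 Hippo gene was called lower. Of all 14488 genes tested in that fit, 1683 were higher and 1074 lower, against 1276 and 964 of 14285 in the main fit. Depth limits 6 of the 9 genes in macrophages, where they had 22 or fewer counts in any library.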
